A study of Mus musculus with 12 samples.

Results

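The 10 genes described here encode the signaling chains of the T cell receptor, its coreceptors and 3 proteins that act beside them. They are Cd3d, Cd3e, Cd3g, Cd247, Cd8a, Cd8b1, Cd4, Cd2, Cd5 and Lck. They were picked by symbol from the table of read counts per gene, and all 10 were found, once each, among 23282 lines. All 10 also had enough counts to enter the tests, which covered 13464 genes. RNA came from 12 MC38 tumors, a mouse colon adenocarcinoma line grown under the skin of the flank of wild-type female C57BL/6 mice, given in the labels as 6 weeks old, and was taken on day 19. The 4 groups had 3 tumors each. Con mice received the vehicle, saline with DMSO and a Tween detergent, and an IgG2a antibody. SFIH mice received a root fraction of Inula helenium, rich in sesquiterpene lactones, at 50 mg/kg daily with IgG2a, PD mice received 200 μg of an anti-PD-1 antibody 2 times a week, and Comb mice received both. The implanted cells are 1 tumor line in a host with an intact immune system, so T cell transcripts in these libraries come from host cells in the tumor piece. The labels call the material tumor cells, the RNA was taken from whole tumor tissue, and the leukocyte gene Ptprc was at 69.2 CPM or more in every tumor (CPM, the counts of a gene scaled to a common library total). In such bulk samples, fewer T cells and less RNA per T cell cannot be told apart.

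A T cell recognizes antigen with a receptor of variable chains that cannot signal by themselves. CD3δ, CD3ε and CD3γ (Cd3d, Cd3e, Cd3g) and the CD3ζ chain (Cd247) carry the signal into the cell through tyrosine motifs that the kinase Lck phosphorylates. CD8 (Cd8a, Cd8b1) on cytotoxic T cells and CD4 (Cd4) on helper and regulatory T cells bind the MHC molecule and bring Lck to the receptor. CD2 (Cd2) is an adhesion receptor on T cells and NK cells, and CD5 (Cd5) restrains receptor signaling. PD-1, the target of the antibody, is an inhibitory receptor that dampens signaling through CD3 and its partners. Some of these genes are used outside T cells: NK cells carry CD2, CD3ζ and Lck, and some mouse dendritic cells carry CD4.

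Cd3d, Cd3e and Cd3g lie next to each other on mouse chromosome 9, and promoter windows of 300 bases (250 before to 50 after the start of the gene) were taken from RefSeq (GRCm38.p6). Such windows were at hand for 7 of the 10 genes, with 2 for Lck, and those of the 4 signaling chains are printed because these chains form 1 complex. The starts of Cd3d and Cd3g are 1355 bases apart and those genes are read in opposite directions, while the start of Cd3e is 27825 bases from that of Cd3d. Capitals mark matches, on either strand, to the E-box letters CAGGTG or CAGCTG, the ETS letters CAGGAAGT, the GATA letters AGATAA or the RUNX core letters TGTGGT. Each sequence is given 5′ to 3′ on the strand of its gene.
Cd3d promoter, chr9:44981536-44981835, plus strand: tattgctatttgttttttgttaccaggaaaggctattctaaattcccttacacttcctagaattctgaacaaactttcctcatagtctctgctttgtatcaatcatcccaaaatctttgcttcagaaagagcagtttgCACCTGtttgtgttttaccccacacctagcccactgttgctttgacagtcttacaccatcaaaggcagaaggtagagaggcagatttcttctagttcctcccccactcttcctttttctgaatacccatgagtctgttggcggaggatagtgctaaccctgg
Cd3g promoter, chr9:44980382-44980681, minus strand: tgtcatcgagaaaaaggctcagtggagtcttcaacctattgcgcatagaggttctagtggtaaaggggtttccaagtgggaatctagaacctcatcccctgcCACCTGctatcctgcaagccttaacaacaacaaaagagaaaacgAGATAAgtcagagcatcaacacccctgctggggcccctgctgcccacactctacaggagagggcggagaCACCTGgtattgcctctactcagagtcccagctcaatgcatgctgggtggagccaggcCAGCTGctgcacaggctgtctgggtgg
Cd3e promoter, chr9:45009562-45009861, minus strand: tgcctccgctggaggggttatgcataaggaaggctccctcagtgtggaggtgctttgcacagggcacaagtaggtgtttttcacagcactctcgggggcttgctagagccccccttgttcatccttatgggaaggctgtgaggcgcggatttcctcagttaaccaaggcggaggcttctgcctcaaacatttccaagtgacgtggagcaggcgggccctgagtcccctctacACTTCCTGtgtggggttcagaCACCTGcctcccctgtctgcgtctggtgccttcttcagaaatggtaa
Cd247 promoter, chr1:165788431-165788730, plus strand: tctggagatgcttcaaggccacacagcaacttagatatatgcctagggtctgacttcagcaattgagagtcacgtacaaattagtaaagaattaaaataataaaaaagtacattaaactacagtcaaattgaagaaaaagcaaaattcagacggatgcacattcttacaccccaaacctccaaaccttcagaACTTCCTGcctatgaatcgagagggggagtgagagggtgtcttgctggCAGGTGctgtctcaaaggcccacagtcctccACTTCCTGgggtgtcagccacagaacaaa
CAGGTG was found in 7 of the 8 windows, every one but that of Cd8a, and in 20.2% of all 32851 promoter windows of the same length. CAGGAAGT was found in 4 of the 8 windows (Cd247, Cd3e and both of Lck) and in 3.33% of all windows. CAGCTG was found in 2 windows (Cd3g and Cd8a) against 16.3% of all, TGTGGT in 1 (Lck) against 16.8% and AGATAA in 1 (Cd3g) against 11.2%. Matches to letters are descriptions of the sequence, and factor binding was not measured.

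Total counts ranged from 7870741 to 12261032 per tumor, at which 3 counts, treated as the floor of detection, correspond to 0.245 to 0.381 CPM. One library stood apart. Comb replicate 3 had counts for 14503 genes, against 15564 to 16465 in the other 11 tumors, and it gave the lowest CPM of all 12 tumors for 47.2% of the genes tested and the highest for 24.4%. Of 10188 genes with at least 25 counts in each of the other tumors, 135 were at 0 in Comb replicate 3, whereas the same count made for each of the other 11 tumors was 0 (a limit chosen after the values were seen). Its values are therefore given by name. Markers of colon epithelium were scarce, with Cdx1, Cdx2 and Lgals4 at or under the floor in all 12 tumors, so the origin of the MC38 line could not be read from them.

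The CD3 chains were scarce but above the floor in Con, with 10 to 92 counts of Cd3d, Cd3e, Cd3g or Cd247 in a tumor, and highest in Comb replicate 3. QuantSeq libraries hold 1 fragment from the 3′ end of a transcript, so that CPM do not grow with gene length and levels can be set beside each other. Cd3d, the most abundant member, was at 8.30, 8.32 and 9.18 CPM in the Con tumors and at 12.5, 8.25 and 9.004 CPM in the SFIH tumors. With the antibody, Cd3d was at 10.7, 27.3 and 13.3 CPM in PD and at 10.1, 36.6 and 108.1 CPM in Comb. All 3 PD tumors and all 3 Comb tumors were above the highest Con tumor, but Comb replicate 1 was below SFIH replicate 1. The mean in Comb, 51.6 ± 50.7 CPM (SD, n = 3), had an SD nearly as large as itself, against 8.60 ± 0.500 CPM in Con.

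Cd3g, which pairs with CD3ε as CD3δ does, was at 1.28, 3.23 and 5.29 CPM in Con, at 5.63, 2.48 and 1.64 CPM in SFIH, at 4.52, 8.89 and 6.17 CPM in PD and at 4.36, 14.8 and 43.5 CPM in Comb. Its groups overlapped, since Comb replicate 1 was below Con replicate 3. Cd3e was at 2.28, 1.04 and 2.99 CPM in Con and at 3.02, 1.82 and 1.02 CPM in SFIH. It was at 2.58, 6.61 and 3.66 CPM in PD and at 2.18, 2.85 and 11.5 CPM in Comb. Only Comb replicate 3 of the Comb tumors was above every Con tumor for Cd3e, and Cd3e rested on 10 to 126 counts. Cd247, whose product also serves receptors of NK cells, was at 4.197, 2.81 and 4.39 CPM in Con, at 6.36, 3.55 and 2.25 CPM in SFIH, at 6.56, 6.86 and 8.996 CPM in PD and at 6.44, 7.42 and 20.7 CPM in Comb. For Cd247 all 6 tumors with antibody were above all 6 without it, by a margin of 6.44 against 6.36 CPM between the nearest tumors.

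**Figure D1:**
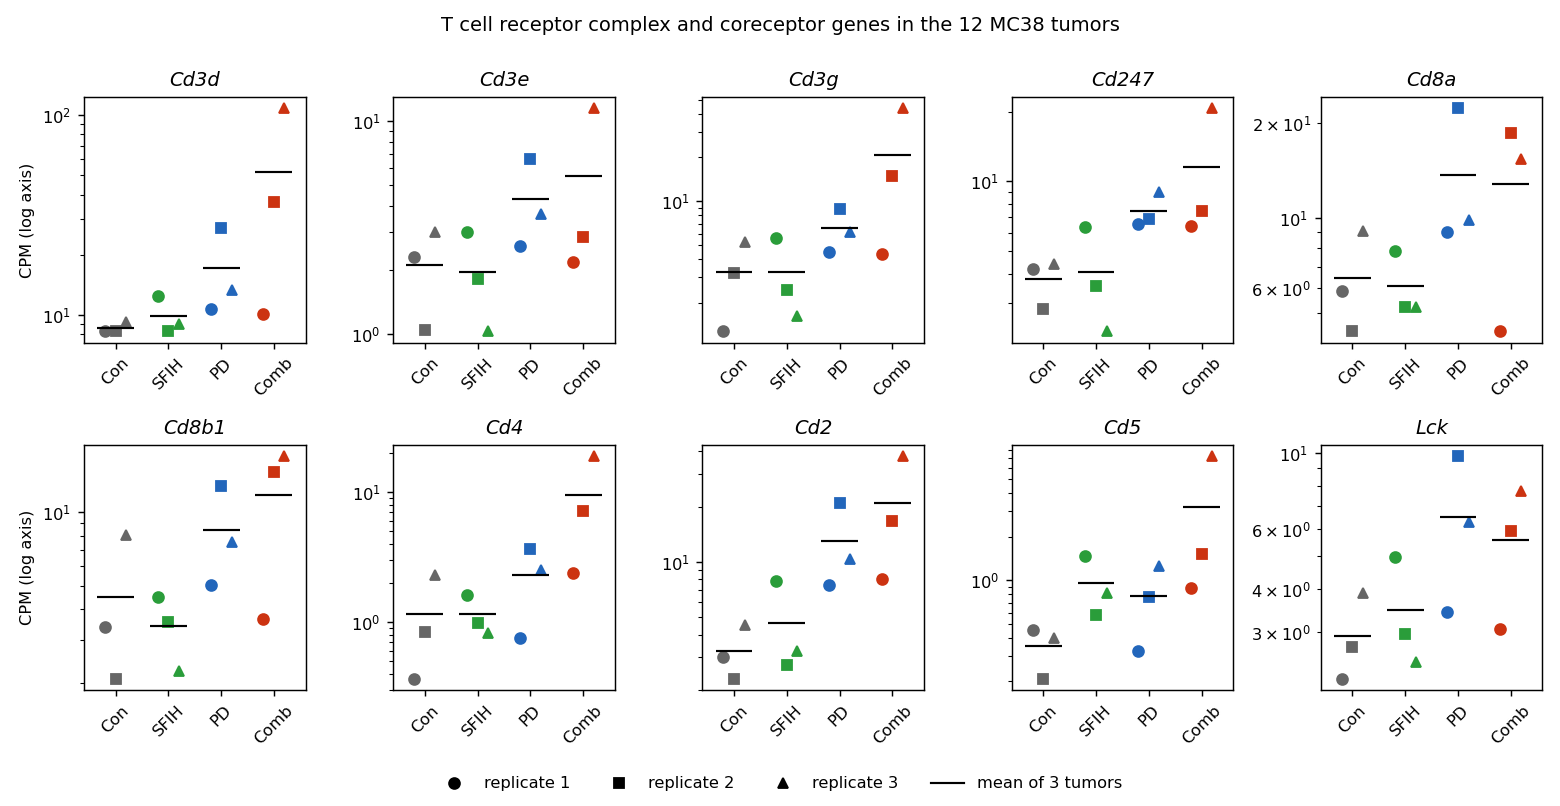
CPM (log axis) of the 10 genes in each tumor, by group, with the symbol giving the replicate and the line the mean of 3 tumors. Comb replicate 3 (red triangle) was the highest tumor for 8 of the 10 genes, and PD replicate 2 (blue square) for Cd8a and Lck.

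The coreceptors differed from each other in their pattern over the groups. Cd8a was at 5.84, 4.37 and 9.08 CPM in Con, at 7.83, 5.20 and 5.22 CPM in SFIH, at 9.03, 22.2 and 9.83 CPM in PD and at 4.36, 18.6 and 15.3 CPM in Comb. Its highest tumor was PD replicate 2, and its lowest were Comb replicate 1 and Con replicate 2. Cd8b1, which encodes the chain that pairs with CD8α on conventional cytotoxic T cells, was at 3.38, 2.08 and 8.08 CPM in Con, at 4.49, 3.55 and 2.25 CPM in SFIH, at 5.06, 12.7 and 7.53 CPM in PD and at 3.67, 14.5 and 16.9 CPM in Comb. Con replicate 3 and Comb replicate 1 made the groups overlap for both CD8 chains. Cd4 was at 0.365, 0.832 and 2.30 CPM in Con, at 1.63, 0.990 and 0.819 CPM in SFIH, at 0.753, 3.69 and 2.51 CPM in PD and at 2.38, 7.21 and 19.1 CPM in Comb. The lowest Cd4 values rested on 4 to 8 counts, and all 3 Comb tumors were above all Con and SFIH tumors.

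Cd2 was at 3.01, 2.29 and 4.49 CPM in Con, at 7.83, 2.72 and 3.27 CPM in SFIH, at 7.42, 20.96 and 10.4 CPM in PD and at 8.02, 16.7 and 37.9 CPM in Comb. Of the 6 tumors with antibody, 5 were above every tumor without it for Cd2, PD replicate 1 being the exception. With the TMM factors applied to the CPM, all 6 were above for Cd2 as well as for Cd247. Lck was at 2.19, 2.71 and 3.89 CPM in Con, at 4.98, 2.97 and 2.46 CPM in SFIH, at 3.44, 9.78 and 6.28 CPM in PD and at 3.07, 5.89 and 7.74 CPM in Comb. Its highest tumor was PD replicate 2, and it did not separate PD from Comb. Cd5 was the scarcest member, at 0.456, 0.208 and 0.399 CPM in Con, at 1.47, 0.577 and 0.819 CPM in SFIH, at 0.323, 0.762 and 1.26 CPM in PD and at 0.892, 1.52 and 7.29 CPM in Comb. Con replicate 2, with 2 counts, and PD replicate 1, with 3 counts, were at the floor for Cd5, and all 3 SFIH tumors were above all 3 Con tumors.

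In Con the order of the mean levels ran from Cd3d at 8.60 ± 0.500 CPM (SD, n = 3) through Cd8a at 6.43 ± 2.41, Cd8b1 at 4.51 ± 3.16, Cd247 at 3.80 ± 0.862, Cd3g at 3.26 ± 2.01, Cd2 at 3.26 ± 1.12, Lck at 2.93 ± 0.872, Cd3e at 2.11 ± 0.988 and Cd4 at 1.16 ± 1.01 to Cd5 at 0.354 ± 0.130 CPM. Each pair of neighbors in this order differed by less than the larger of their SDs. In Comb, Cd3d at 51.6 ± 50.7 CPM was followed by Cd3g at 20.9 ± 20.3 and Cd2 at 20.9 ± 15.4, with Cd8a at 12.8 ± 7.45, Cd8b1 at 11.7 ± 7.07, Cd247 at 11.5 ± 7.95, Cd4 at 9.57 ± 8.62, Lck at 5.57 ± 2.35, Cd3e at 5.50 ± 5.18 and Cd5 at 3.23 ± 3.52 CPM after them. These SDs were again larger than the steps between neighbors, with Comb replicate 3 the highest of the 3 tumors for every gene named in the order but Cd8a.

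The design crosses SFIH with the antibody, and the first question was whether each treatment was accompanied by another level of these genes. No member passed an adjusted p of 0.05 in edgeR's quasi-likelihood test (Benjamini-Hochberg over all genes) in any of the 7 comparisons. The share of all genes called was 0% in each of them. The fits gave the members 1 direction in each comparison of antibody with none. Fold changes are given as log2 with a standard error derived from the test. It is the absolute log2 fold change divided by the square root of the quasi-likelihood F statistic. A member counts as separated where all tumors of the first group were above all tumors of the second in CPM.

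Comb against Con gave the highest median difference of the 7 comparisons, though single members were higher by more in Comb against SFIH, Cd8b1 among them (2.15 against 1.76). All 10 members had a higher fitted level, with a median of 2.48 on the log2 scale against -0.03 over all genes tested. Cd5 was higher by 3.55 (SE 0.94), Cd4 by 3.46 (SE 0.93), Cd3g by 3.11 (SE 0.85), Cd2 by 3.06 (SE 0.70) and Cd3d by 2.999 (SE 0.76). These were followed by Cd247 at 1.97 (SE 0.54), Cd3e at 1.79 (SE 0.75), Cd8b1 at 1.76 (SE 0.66), Cd8a at 1.34 (SE 0.57) and Lck at 1.27 (SE 0.53). The adjusted p-values from edgeR lay between 0.0665 (Cd2) and 0.175 (Cd8a). All 10 members were under an unadjusted p of 0.05 with a higher level, as were 18% of all genes tested. This count was 6 of 10 without Comb replicate 3 (11.4% of all genes), without Con replicate 1 (14.1%) or without Con replicate 2 (13.3%), and also without the TMM factors (11.9%). The members separated were Cd3d, Cd247, Cd4, Cd2 and Cd5, 5 of 10, against 7.6% of all genes. Without Comb replicate 3 the median of the members was 1.46, and edgeR called no member and 5 of 13621 genes. Without Comb replicate 1 the median was 2.91 and all 10 members had an adjusted p under 0.05, as had 28.5% of all genes. DESeq2 called 6 of the 10 members and 14.8% of all genes, and limma-voom with quality weights called 8 members and 20.2% of all genes, whereas edgeR with all tumors called 0.

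PD against Con gave smaller and more even differences. All 10 members were higher, by 1.04 (SE 0.66, Cd8b1) to 2.11 (SE 0.68, Cd2) on the log2 scale, with a median of 1.14 against 0.01 over all genes. The adjusted p was 0.9998 for each of them in edgeR. Cd2 and Lck, 2 of 10, were under an unadjusted p of 0.05 with a higher level, as were 2.31% of all genes. With 1 tumor left out this count ran from 0 without PD replicate 2 (1.61% of all genes) to 5 without Comb replicate 1 (4.27%) or Comb replicate 3 (6.14%). It was 1 without Con replicate 1 (1.35%) or Con replicate 2 (1.14%), and 3 without Con replicate 3 (1.49%) or PD replicate 1 (2.14%). Without PD replicate 2 the median of the members was 0.70. The separated members were Cd3d, Cd247 and Cd2, 3 of 10, against 5.76% of all genes. Apart from Cd2 at 2.11, the fitted changes lay between 1.04 (Cd8b1) and 1.27 (Lck), with SEs of 0.53 to 0.94.

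SFIH against Con gave no common direction. The fitted changes ran from -0.39 (SE 0.66, Cd8b1) to 1.38 (SE 0.92, Cd5), 5 of 10 members were higher, and their median was 0.03 against 0.02 over all genes. The adjusted p was 0.9998 for each member in edgeR. No member was under an unadjusted p of 0.05 with a higher level, against 1.2% of all genes. Cd5 was separated, 1 of 10, against 7.55% of all genes, and it rested on 2 to 18 counts a tumor. The sign of the median depended on single tumors, from -0.29 without SFIH replicate 1 to 0.35 without Con replicate 3.

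**Figure D2:**
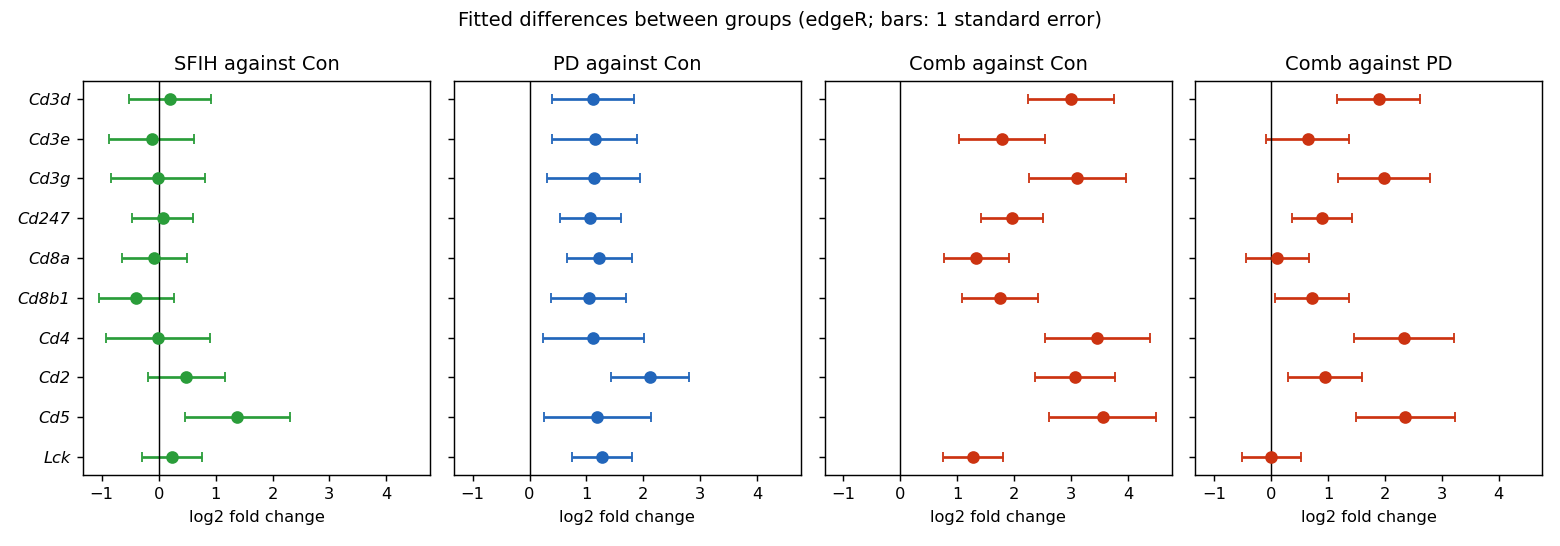
Fitted log2 fold changes of the 10 genes with 1 standard error for 4 comparisons. The members scatter about 0 in SFIH against Con, sit between 1.04 and 2.11 in PD against Con, and spread from 1.27 to 3.55 in Comb against Con and from 0.00 to 2.36 in Comb against PD.

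Whether SFIH added to the antibody was asked with Comb against PD. The fitted changes of the members spread widely here. Cd5 was higher by 2.36 (SE 0.88), Cd4 by 2.34 (SE 0.88), Cd3g by 1.98 (SE 0.81) and Cd3d by 1.89 (SE 0.72), the 4 of 10 members under an unadjusted p of 0.05, against 12.9% of all genes in that direction. No member was under that p without Comb replicate 3 (4.11% of all genes) or without PD replicate 1 (6.46%), and 1 member was without PD replicate 3 (6.89%). Cd2 at 0.95 (SE 0.65), Cd247 at 0.90 (SE 0.53), Cd8b1 at 0.72 (SE 0.65) and Cd3e at 0.64 (SE 0.73) lay between, and Cd8a at 0.11 (SE 0.56) and Lck at 0.00 (SE 0.51) were close to 0. The adjusted p-values from edgeR ran from 0.243 (Cd5) to 0.999 (Lck). No member was separated, against 4.25% of all genes. The median of the members, 0.93 against 0.00 over all genes, was 0.12 without Comb replicate 3. Without Comb replicate 1 edgeR called 4 members and 15.2% of all genes, DESeq2 called 0 members and 3.1% of all genes, and limma-voom 2 members and 7.98% of all genes.

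In Comb against SFIH the median of the members was 2.16 against -0.05 over all genes, from 1.04 (SE 0.52, Lck) to 3.47 (SE 0.92, Cd4), with adjusted p-values from edgeR between 0.128 and 0.306. A higher level at an unadjusted p under 0.05 was found for 9 of 10 members, all but Lck, and for 14.8% of all genes. Cd247, Cd4 and Cd2, 3 of 10, were separated, against 4.65% of all genes. Without Comb replicate 3 the median was 1.31, 6 members and 7.16% of all genes were higher at that p, and no member or other gene was called. Without Comb replicate 1 the median was 2.64 and 9 members had an adjusted p under 0.05, as had 22.5% of all genes. DESeq2 called 6 members and 8.59% of all genes, and limma-voom 7 members and 15% of all genes. Comb against Con, Comb against PD and Comb against SFIH share the Comb tumors, so these comparisons are not independent of each other. Fitted on the 6 tumors of each pair of groups alone, edgeR called no member. The members higher at an unadjusted p under 0.05 were then 5 of 9 tested in PD against Con (6.41% of all genes), 5 of 9 in Comb against Con (10.7%), 0 of 10 in Comb against PD (4.06%) and 6 of 10 in Comb against SFIH (8.96%).

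Taking the antibody as a factor sets the 6 tumors of PD and Comb against the 6 of Con and SFIH. All 10 members were higher in the fit, by 1.16 (SE 0.37, Lck) to 2.35 (SE 0.48, Cd2), with a median of 1.64 against -0.03 over all genes. The adjusted p-values from edgeR lay between 0.0973 (Cd2) and 0.183 (Cd5). All 10 were under an unadjusted p of 0.05 with a higher level, against 13.4% of all genes. Cd247, 1 of 10, was separated in unscaled CPM, against 0.661% of all genes, and Cd247 and Cd2, 2 of 10, were in TMM-scaled CPM, against 1.12%. Without Comb replicate 3 the median was 1.24, and 8 members and 11.6% of all genes were higher at an unadjusted p under 0.05. That edgeR fit called 0 members and 2 of 13621 genes. Without Comb replicate 1 edgeR called all 10 members and 17.1% of all genes. DESeq2 on all 12 tumors called 9 members and 9.28% of all genes, and limma-voom 8 members and 20.7% of all genes.

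Levels on the log2(CPM + 1) scale, without the TMM factors, were also compared by exact permutation tests of 6 against 6 tumors (two-sided, not adjusted, with 0.00216 the smallest p that 924 regroupings allow). Cd247 reached that smallest exact p of 0.00216. The exact p was 0.00433 for Cd2, with 5 of 6 antibody tumors above all others, and 0.0108 for Cd3d, with 4 of 6. It was 0.0173 for Cd3g, 0.0238 for Cd8b1, 0.0281 for Cd4, 0.0281 for Lck, 0.0390 for Cd3e and 0.0498 for Cd8a. For Cd5 the exact p was 0.141, and with 1 tumor left out it ran from 0.0390 without PD replicate 1 to 0.290 without Con replicate 2. Over the same omissions, the exact p stayed at or under 0.0476 for Cd247, Cd2, Cd3d and Cd3g, and reached 0.0519 for Cd8b1, 0.0584 for Lck, 0.0714 for Cd4, 0.0909 for Cd8a and 0.0931 for Cd3e. Exact tests of 3 against 3 tumors cannot give a p under 0.1.

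The interaction term asked whether the difference with the antibody was larger with SFIH than without it. It was positive for 9 of 10 members, from -0.23 (SE 0.74, Lck) to 2.34 (SE 1.25, Cd4), with a median of 0.90 against -0.03 over all genes. The adjusted p-values from edgeR lay between 0.894 and 0.949, no member was under an unadjusted p of 0.05 with a positive term, and 2% of all genes were. Cd3d, Cd3g and Cd4, 3 of 10, were positive at that p without Comb replicate 1, as were 11.7% of all genes. The same 3 were with limma-voom, as were 7% of all genes, and no member was called in either fit. Without Comb replicate 3 the median of the members was -0.09.

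The balance of the coreceptors differed in Comb. Of the counts of Cd4 and Cd8a together, Cd4 made up 5.88%, 16.0% and 20.2% in Con. It made up 17.2%, 16.0% and 13.6% in SFIH and 7.69%, 14.2% and 20.3% in PD. In Comb the share was 35.3% (95% exact binomial interval 24.1 to 47.8), 27.95% (22.5 to 33.9) and 55.6% (50.4 to 60.6). All 3 Comb tumors were above all 9 others, and the intervals cover counting error only. Upper limits in the other groups reached 29.1%, in Con replicate 2. The intervals of Comb replicates 1 and 2 overlapped that one, and the interval of Comb replicate 3 overlapped none of the other groups. In Comb replicate 3 Cd4 had more counts than Cd8a, 210 against 168, whereas Comb replicate 1 had 24 and 44 and Comb replicate 2 had 71 and 183. Comb replicate 1, which had fewer T cell transcripts than Comb replicates 2 and 3, had the same direction of the share. This ratio was singled out after its values were seen, and was given no test. Cd4 transcripts from dendritic cells cannot be told apart from those of T cells, and their part in the share was not tested. Of 12 dendritic cell genes, 7 were highest in Comb replicate 3, among them Clec9a at 17.0 against 0.208 to 3.46 CPM elsewhere and Itgax at 93.1 against 9.51 to 33.4 CPM (both named after their values were seen). The 3 that were lowest there, Fscn1, Bst2 and Zbtb46, include the 2 most abundant, Fscn1 and Bst2, so that the summed level of the list was 331 CPM in Comb replicate 3 and 452 to 780 CPM in the other tumors.

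**Figure D3:**
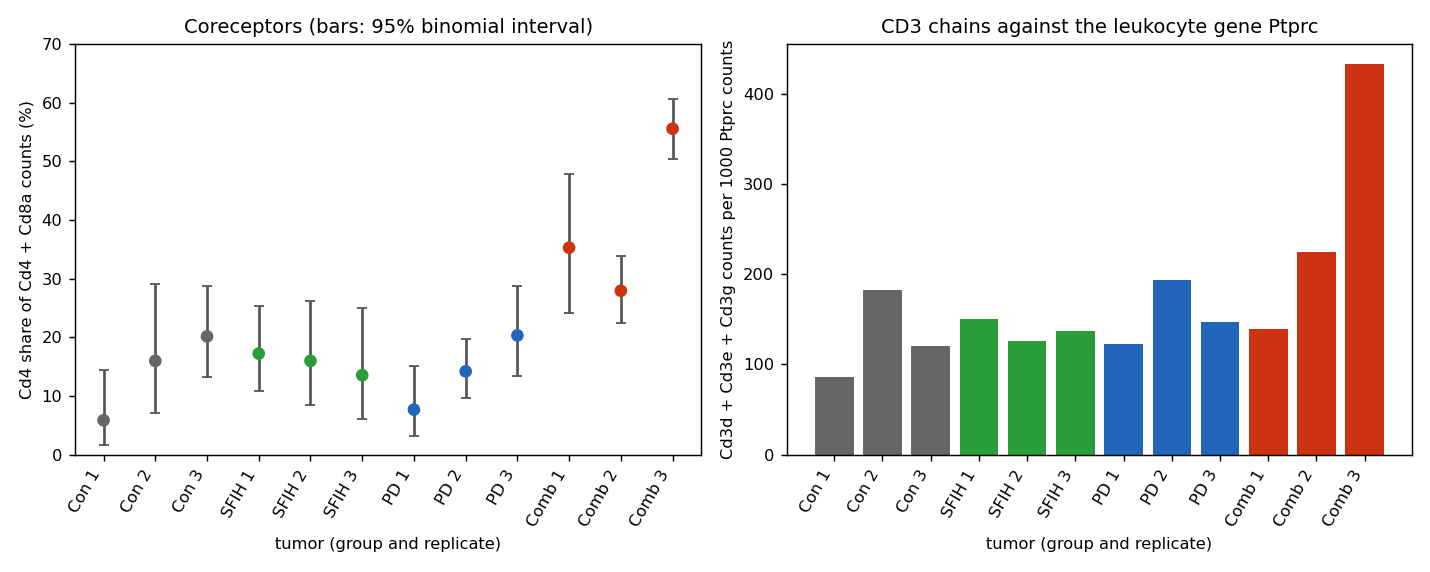
Left, share of Cd4 in the counts of Cd4 and Cd8a per tumor, with its 95% exact binomial interval. Right, counts of Cd3d, Cd3e and Cd3g per 1000 counts of Ptprc. The 3 Comb tumors (red) have the highest Cd4 shares, 27.95% to 55.6%, and Comb replicate 3 has the highest bar, 433.

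The members did not keep fixed proportions to each other. For each 100 counts of Cd3d, Cd3e and Cd3g together, Lck had 18.5 to 22.3 counts in Con, 21.1 to 23.7 in SFIH and 19.4 to 27.1 in PD. In Comb it had 18.5, 10.9 and 4.75, so that Comb replicates 2 and 3 were below every tumor of the other groups. Cd8a per 100 CD3 counts was 34.7 to 52.0 in Con, 37.1 to 44.7 in SFIH and 42.5 to 51.9 in PD, and 26.2, 34.3 and 9.38 in Comb. All Comb tumors were thus lower than all others in Cd8a per CD3 count. The nearest were Comb replicate 2 at 34.3 and Con replicate 2 at 34.7, the latter with 42 counts of Cd8a. The other CD8 chain did not separate: Cd8b1 per 100 CD3 counts was 22.0, 26.8 and 10.4 in Comb and 16.5 to 46.3 in the other groups. Cd4 per 100 CD3 counts was 14.3, 13.3 and 11.7 in Comb and 3.08 to 13.1 in the other groups. Cd2 per 100 CD3 counts was 41.8, 49.0 and 44.8 in PD, above the 18.2 to 37.1 of Con and SFIH, and 48.2, 30.7 and 23.2 in Comb.

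Set against all leukocytes, the CD3 chains of Comb overlapped those of the other groups. Ptprc encodes CD45, the phosphatase on all leukocytes. The summed counts of Cd3d, Cd3e and Cd3g per 1000 counts of Ptprc were 86.3, 182.0 and 121.0 in Con. The SFIH tumors had 150.4, 126.5 and 137.3, the PD tumors 123.0, 194.1 and 146.6, and the Comb tumors 139.2, 224.8 and 433.3. Comb replicates 2 and 3 were above all others, whereas Comb replicate 1 lay within the range of Con. Ptprc itself was at 69.2 to 144 CPM in Con, 84.9 to 140 CPM in SFIH, 144 to 221 CPM in PD and 120 to 376 CPM in Comb.

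Genes of the proximal signaling pathway were read from a list of 30 symbols, of which 28 were tested. None passed the adjusted threshold in edgeR. In the antibody factor, 16 of 28 were higher at an unadjusted p under 0.05, against 13.4% of all genes, and none lower, 26 had a higher fitted level, and the median was 1.08 on the log2 scale against -0.03 over all genes. In Comb against Con 17 of 28 were higher at that p, against 18% of all genes, with a median of 1.54. In PD against Con 1 of 28 was, against 2.31% of all genes, with a median of 0.64. The signaling genes higher at that p without Comb replicate 3 were 12 of 28 in the antibody factor (median 0.67, against 11.6% of all genes at that p), 8 of 28 in Comb against Con (median 0.79, against 11.4%) and 4 of 28 in PD against Con (median 0.64, against 6.14%). The 4 genes with the smallest p in the antibody factor were Ubash3b (0.57, SE 0.14, adjusted p = 0.0980), which encodes a phosphatase that restrains receptor signaling, Cd28 (1.91, SE 0.51, adjusted p = 0.0980), the costimulatory receptor, Prkcq (2.56, SE 0.71, adjusted p = 0.0993), a kinase downstream of the receptor, and Ptprc (1.13, SE 0.32, adjusted p = 0.103), which activates Lck. Of 14 transcription factors of the T lineage, all tested, 6 were higher at an unadjusted p under 0.05 in the antibody factor, against 13.4% of all genes, and none lower, with a median of 0.33. Leaving out Comb replicate 3 gave 5 higher, against 11.6% of all genes, and 1 lower at that p, with a median of 0.30. Those with the smallest p were Bcl11b (1.43, SE 0.32, adjusted p = 0.0973), Ikzf3 (1.97, SE 0.52, adjusted p = 0.0980), Ikzf1 (1.07, SE 0.32, adjusted p = 0.111) and Satb1 (1.88, SE 0.59, adjusted p = 0.128), factors of lymphoid development. Of the receptor chain genes listed, Ptcra, the partner of the β chain in thymocytes, was in the table; it was at 3.02 to 4.69 CPM in Con and 0.364 to 4.06 CPM in Comb, and the constant genes of the receptor chains were not analysed here.

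Marker genes of other cells were also highest in some of the tumors with high members. The summed level of 8 leukocyte genes, led by Cd52 and Ptprc, was 312 to 596 CPM in Con, 437 to 677 CPM in SFIH, 581 to 1055 CPM in PD and 669, 1363 and 3729 CPM in Comb. All 8 of them were highest in Comb replicate 3. Macrophage genes, led by C1qb and C1qa, summed to 650 to 1151 CPM in Con, 1064 to 1256 CPM in SFIH, 1114 to 2083 CPM in PD, and 1226, 3794 and 11670 CPM in Comb, with 10 of the 11 tested highest in Comb replicate 3. The tumors with the most T cell transcripts, Comb replicates 3 and 2 and PD replicate 2, were also those with the highest leukocyte and macrophage sums.

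**Figure D4:**
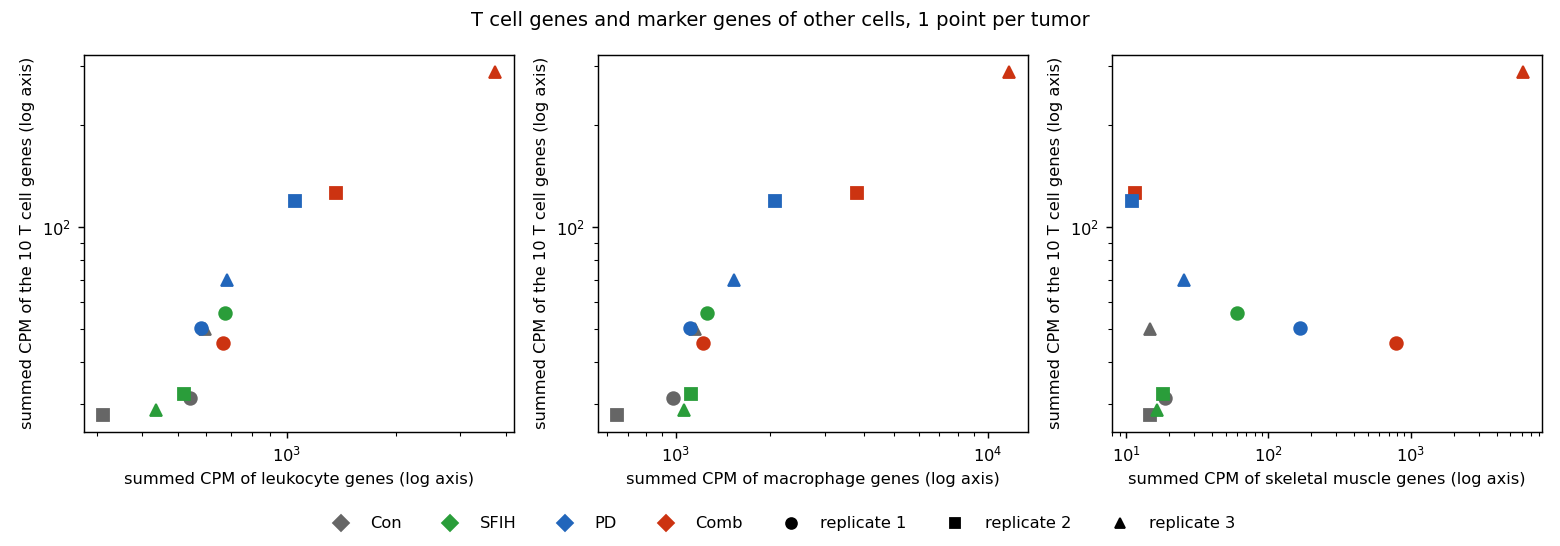
Summed CPM of the 10 T cell genes against that of leukocyte, macrophage and skeletal muscle genes, 1 point per tumor, both axes logarithmic. The T cell genes follow the leukocyte and macrophage sums across tumors, and Comb replicate 3 lies at the upper right of each panel.

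Skeletal muscle genes, led by Acta1 and Tnnt3, summed to 6121 CPM in Comb replicate 3, 781 CPM in Comb replicate 1, 167 CPM in PD replicate 1 and 10.9 to 59.9 CPM in the other 9 tumors. Skin genes, led by Sbsn and Lor, summed to 457.5 CPM in Comb replicate 3 and to at most 69.6 CPM elsewhere. Of 5 skin genes tested, 4 were highest there, but not Sbsn, at 22.1 CPM against 27.1 CPM in Con replicate 1. NK cell genes, led by Klra4 and Eomes, summed to 251.9 CPM in Comb replicate 3 and to 83.1 to 151 CPM elsewhere. Of 11 NK cell genes tested, 6 were highest there. The 2 most abundant were not among them: Klra4 was lowest there, at 6.65 CPM, and Eomes was at 26.4 CPM against 37.2 CPM in Con replicate 1. B and plasma cell genes, led by Jchain and Cd79b, summed to 83.1 CPM in Comb replicate 2, 35.1 CPM in Comb replicate 3 and at most 17.3 CPM elsewhere, with Pax5 at 0 in all tumors. Genes of lymph node and naive lymphocytes, led by Klf2 and Il7r, summed to 247 CPM in Comb replicate 3 and 101 to 215 CPM elsewhere. Of the 7 tested, 5 were highest there, while Klf2 was lowest, at 31.1 CPM. Genes of colon epithelium, led by Cdh1 and Krt8, summed to 88.0 CPM in Comb replicate 3 against at most 22.3 CPM elsewhere. Of the 6 tested, 4 were highest there and Vil1 lowest, and Cdh1 was at 14.3 CPM against 14.6 CPM in PD replicate 2. The part of tissue around the tumor, and of other leukocytes, in the members' values was not tested. PD replicate 2 and Comb replicate 2 had 119.8 and 126.1 CPM of the 10 members together, against 27.9 to 55.7 CPM in the 6 tumors without the antibody. Their muscle sums, 10.9 and 11.6 CPM, were the lowest in their groups. Their skin sums were 23.8 CPM, the highest of PD, and 9.76 CPM, the lowest of Comb. Their colon epithelium sums were 21.5 CPM, the highest of PD, and 22.3 CPM, between the other Comb tumors. The part of such tissue in the members' values of these 2 tumors was not tested either.

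The members varied together over tumors. Over the 45 pairs, Pearson's r of log2(CPM + 1) over 12 tumors had a median of 0.845, from 0.477 (Cd8a with Cd5) to 0.965 (Cd3g with Cd4). The median was 0.816 without Comb replicate 3 and 0.819 after the group means were removed, so tumors within a group also differed together in these genes. The values of 1 tumor share a library, its depth and its mix of cells. Among 12130 genes that are not members and had a mean of at least 20 counts, those most like the mean standardized level of Cd3d, Cd3e, Cd3g and Cd247 were Plbd1 (r = 0.988), Fam189b (0.980), Ptprcap (0.980), H2-Ab1 (0.976), Ms4a4b (0.974), H2-Aa (0.974), Myo1g (0.974), Nkg7 (0.973), Serpina3g (0.973) and H2-DMa (0.973). Ptprcap encodes a partner of CD45, Nkg7 a protein of cytotoxic granules, and H2-Ab1, H2-Aa and H2-DMa encode MHC class II proteins. H2-Aa ranged from 687 to 90512 counts over the 12 tumors. Without Comb replicate 3, 4 of these 10 genes were again among the top 10, with Plbd1 first at r = 0.969.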

How the data were processed

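RNA was measured in 12 MC38 tumors. The authors deposited raw read counts per gene symbol, for which 3′ ends of transcripts were sequenced with the QuantSeq kit; the aligner, counting tool and genome build are not given in the sources used here. Columns were assigned to the tumors by the sample descriptions. The members and gene lists were chosen with earlier results of these data known. Tests used edgeR 4.0.16 in R 4.3.3: filterByExpr by group, TMM and 1 quasi-likelihood fit of 12 tumors without a block, with Benjamini-Hochberg adjustment over 13464 genes at 0.05, two-sided. DESeq2 1.42.0 and limma 3.58.1 were alternatives. Levels are CPM of the total counts, and permutation tests used log2(CPM + 1). The rule for named genes took all 10 members, up to 4 genes with the smallest p in the antibody factor from each pathway list, the 2 most abundant genes of each marker list, and the 10 genes with the highest likeness. The fitting steps were tested on simulated counts with less spread between tumors than in these data, where the common dispersion was 0.1585. No outlying library was simulated, so that test does not show how the fits behave with a library such as Comb replicate 3. Reads carried no molecular identifiers, so intervals and floors cover counting error only. The labels name single tumors of each group and do not say more of how they were sampled, so p-values measure the spread between these samples.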

Additional observations from a re-analysis of the deposited data

How the results depend on the processing

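No member was called by edgeR under another normalization, filter or set of samples, except without Comb replicate 1. The members called then were 10 in Comb against Con, 4 in Comb against PD, 9 in Comb against SFIH and 10 in the antibody factor (ranges over the tumors left out 0 to 10, 0 to 4, 0 to 9 and 0 to 10). DESeq2 called 6, 0, 6 and 9 of them and limma-voom 8, 2, 7 and 8. Over all genes, DESeq2 called 1998 in Comb against Con, 417 in Comb against PD, 1157 in Comb against SFIH, 1250 in the antibody factor, 6 in PD against Con, 4 in SFIH against Con and 1 for the interaction; edgeR called 0, with 3406, 2424, 2559, 2523, 537, 303 and 344 genes at an unadjusted p under 0.05.

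The median over the members in SFIH against Con reversed to -0.0923 with limma-voom and -0.0182 with only the groups compared, and spanned -0.29 to 0.35 with 1 tumor left out. With 1 tumor left out it spanned 1.46 to 2.91 in Comb against Con, 0.12 to 1.37 in Comb against PD, 1.31 to 2.64 in Comb against SFIH and -0.0859 to 1.34 for the interaction. The lowest of the last 4 ranges came without Comb replicate 3. In Comb against PD, Cd3e was -0.0518 with limma-voom, Cd8a was -0.10 without TMM, and Lck was -0.22 without TMM, -0.0179 without Rn45s, -0.0522 without the filter on low counts, -0.0181 with the replicate block and -0.00761 with only the groups compared. Leaving out 1 tumor there gave Cd3e -0.70 to 1.14, Cd247 -0.0287 to 1.26, Cd8a -0.22 to 0.71 and Lck -0.45 to 0.47. Cd8b1 in SFIH against Con spanned -0.73 to 0.26, and Lck in the interaction -0.69 to 0.24, with 0.24 by limma-voom. The cause of these shifts was not tested.

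Without TMM the median of all genes in Comb against Con was -0.29 and that of the members 2.09, with 6 of 10 members under an unadjusted p of 0.05. The numbers of the replicates do not say that tumors were paired. Same-numbered tumors of different groups had correlations of their deviations from -0.29 to 0.41 (median 0.01, over 0.1 in 6 of 18 pairs), and 2 of 12 tumors correlated best with their own number. With the replicate block no member was called, and the median over the members was 0.29 in SFIH against Con, 1.18 in PD against Con, 2.27 in Comb against Con, 0.78 in Comb against PD, 1.80 in Comb against SFIH, 1.44 in the antibody factor and 0.62 for the interaction. Depth limits Cd5, Cd4 and Cd3e most. A mean of at least 50 counts left 6 members.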

Other observations

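Some genes with a part in T cells were high, and others low or at 0, in the tumor with the most Cd3d. The genes in this paragraph were chosen after their values were seen. In Comb replicate 3, with 1187 counts of Cd3d, Skap1, an adaptor of receptor signaling, had 292 counts against 7 to 44 in the other tumors, Prkcq 119 against 2 to 27, Satb1 323 against 9 to 57 and the kinase gene Zap70 72 against 4 to 27. In the same tumor Cd6, a receptor related to CD5, had 0 counts against 7 to 44 elsewhere. Lef1 and Tcf7, transcription factors of naive and memory T cells, had 0 counts there, against 29 to 107 and 4 to 18 elsewhere. Plcg1, the phospholipase of the receptor pathway, had 0 against 4 to 11, and Ets1 had 158 against 392 to 953. The lowest counts of Tcf7 and Plcg1 elsewhere, 4 for each, were close to the floor of 3. In Con, Ets1 was at 54.0 to 73.9 CPM and Lef1 at 7.58 to 7.91 CPM, beside 8.30 to 9.18 CPM of Cd3d. Which cells the transcripts of these low genes came from was not tested. Of the signaling genes tested, 18 of 28 were highest and 4 of 28 lowest in this tumor, and of the lineage factors 6 of 14 and 4 of 14. Over all genes tested, 24.4% were highest and 47.2% lowest there, so both lists held a smaller share of lowest genes than all genes did. Lef1 is 1 of the 135 genes at 0 in this library alone. What sets these genes apart was not tested.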
